A study of Mus musculus with 20 samples.

Results

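The genes described here are the GDNF receptor pair Gfra1 and Ret and 8 transcriptional regulators of spermatogonial stem cells, namely Etv5, Bcl6b, Lhx1, Pou3f1, Id4, Zbtb16, Sall4 and Foxo1. They were chosen by symbol and make up 10 of the 23853 gene symbols shared by the count tables of the 3 ages. RNA was sequenced from male mouse germ cells sorted by flow cytometry on green fluorescence, on a mixed strain background. Tex15 knockout (KO) cells were set against Tex15 heterozygous (HET) cells at embryonic day 16.5 (e16.5), embryonic day 18.5 (e18.5) and postnatal day 2 (d2), with 3 KO and 3 HET libraries for each fetal age and 4 KO and 4 HET libraries for d2. Cells of both genotypes were sorted on the same fluorescence, and the HET cells that serve as controls keep 1 copy of Tex15. Tex15 encodes a germ cell protein needed for the silencing of retrotransposons in the fetal male germ line. The labels do not give the reporter behind the fluorescence, the nature of the Tex15 allele, or whether each library had its own animal. All p-values here therefore describe the scatter of these libraries, which may be technical.

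Glial cell line-derived neurotrophic factor (GDNF) is secreted by somatic cells of the testis and binds GFRA1, a co-receptor anchored in the membrane of the germ cell, which then recruits the receptor tyrosine kinase RET. RET signals through the ERK, SRC family and PI3 kinase-AKT pathways, and mouse spermatogonial stem cells lose their capacity for self-renewal without GDNF. In cultured mouse stem cells GDNF raises the transcription factor genes Etv5, Bcl6b, Lhx1, Pou3f1 and Id4, whereas Zbtb16 (PLZF), Sall4 and Foxo1 encode other regulators of the undifferentiated state. Fetal male germ cells, called prospermatogonia, rest from division late in gestation and give rise to the first spermatogonia after birth.

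Total counts per library were 14.3 to 31.5 M (mega), and counts in genes 7.78 to 14.2 M. Levels are given as CPM, gene counts scaled to each library's gene total with trimmed mean of M-values factors over all 20 libraries. Tex15 itself lay at 1.70 to 5.34 CPM in KO libraries of the fetal ages, against 1267 to 2103 CPM in HET libraries of those ages. At d2 it lay at 2.04, 102, 2.47 and 2.61 CPM in KO libraries, against 884, 837, 1013 and 612 CPM in HET libraries. The log2 fold change of KO over HET was -8.82 at e16.5 (adjusted p = 2.11e-10) and -8.96 at e18.5 (adjusted p = 7.23e-11). For d2 it was -4.97 (adjusted p = 0.167), and -8.45 without KO replicate 2 (adjusted p = 3.09e-14). The d2 library labelled KO replicate 2, with 799 Tex15 counts, therefore stood apart from the other KO libraries, and the log2 fold changes of KO over HET at d2 are given with and without it for the 10 genes. All 9 germ cell markers had counts in all 20 libraries, and their summed level ran from 3150 to 6071 CPM. Each age was deposited as a table of its own, so age and anything else that differed between the ages cannot be told apart. In bulk samples fewer cells of a type and less RNA per cell cannot be told apart either.

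Upstream sequence was available for 5 of the 10 genes in the set of RefSeq promoter windows used here (GRCm38.p6). The 250 bases before the annotated start are shown for 3 genes that rose together at d2 and for Foxo1, whose level stayed nearly flat, written 5′ to 3′ on the gene's own strand with the searched motifs found there in capitals. The Gfra1 window is chr19:58455399-58455648 on the minus strand, that of Lhx1 chr11:84525535-84525784 on the minus strand, that of Id4 chr13:48260866-48261115 on the plus strand and that of Foxo1 chr3:52268087-52268336 on the plus strand.
Gfra1: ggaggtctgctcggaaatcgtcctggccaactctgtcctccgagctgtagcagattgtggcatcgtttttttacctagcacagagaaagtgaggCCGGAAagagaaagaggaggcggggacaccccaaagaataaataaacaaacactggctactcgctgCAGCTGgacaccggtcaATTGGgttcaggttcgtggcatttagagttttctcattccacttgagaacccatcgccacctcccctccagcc
Lhx1: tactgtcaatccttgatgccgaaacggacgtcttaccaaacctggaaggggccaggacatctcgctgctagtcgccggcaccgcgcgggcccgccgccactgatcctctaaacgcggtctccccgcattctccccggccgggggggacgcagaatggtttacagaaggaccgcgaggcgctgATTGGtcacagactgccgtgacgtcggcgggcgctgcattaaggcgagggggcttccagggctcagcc
Id4: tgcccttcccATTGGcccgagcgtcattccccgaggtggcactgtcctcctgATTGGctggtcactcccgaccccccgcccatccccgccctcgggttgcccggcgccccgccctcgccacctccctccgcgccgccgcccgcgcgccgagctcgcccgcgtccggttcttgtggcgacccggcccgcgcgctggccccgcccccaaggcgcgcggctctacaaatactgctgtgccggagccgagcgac
Foxo1: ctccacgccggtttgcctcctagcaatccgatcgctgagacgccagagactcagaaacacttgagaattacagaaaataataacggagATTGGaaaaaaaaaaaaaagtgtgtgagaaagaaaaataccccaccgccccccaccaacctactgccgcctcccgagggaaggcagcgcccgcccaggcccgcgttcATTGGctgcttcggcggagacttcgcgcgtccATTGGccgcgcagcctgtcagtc
Both strands were searched for an ETS core (CCGGAA), a forkhead core (GTAAACA), a cyclic AMP response element (TGACGTCA), an E-box (CAGCTG) and a CCAAT box (CCAAT, or ATTGG on the other strand). No matches overlapped one another in the windows shown. The CCAAT box stood in all 4 windows, in 1 copy for Gfra1 and Lhx1, 2 copies for Id4 and 3 copies for Foxo1, and it stood in 33.8% of all 32851 windows of that length. Gfra1 alone of the 4 also held an ETS core, 156 bases before the start, and an E-box, 90 bases before it. An ETS core stood in 12% of all windows and an E-box in 13%. The cyclic AMP response element, in 1.55% of all windows, stood in none of these. The 2 windows of Etv5, which are not shown, held CCAAT boxes too, and 1 of them held an E-box and a forkhead core, which stood in 3.17% of all windows. A match of letters describes the window and does not show that a factor binds there.

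Between e18.5 and d2 both receptor genes and 6 of the 8 regulators rose steeply in cells of either genotype. Gfra1 rose 31.4-fold in KO cells and 23.4-fold in HET cells, and Lhx1, Etv5, Pou3f1, Id4 and Ret rose by between 11.8-fold and 30.1-fold. Bcl6b and Zbtb16 rose less, by 5.21-fold to 6.87-fold, while Sall4 rose 2.07-fold in KO cells and missed the threshold in HET cells, and Foxo1 stayed nearly level. Of the 10 genes, 9 rose and none fell in KO cells, while 8 rose and 1 fell in HET cells (edgeR quasi-likelihood test, Benjamini-Hochberg adjusted p under 0.05). Among all 18619 genes tested, 25.3% rose and 29.7% fell in KO cells, and 24.1% rose and 27.0% fell in HET cells. The median log2 fold change of the 10 genes was 3.70 in KO cells, where the median of all genes was -0.11, and 3.95 in HET cells, where it was -0.08. The 8 steep rises passed the test in both genotypes in each of the 20 fits that left out 1 library and under each other setting tried.

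**Figure D1:**
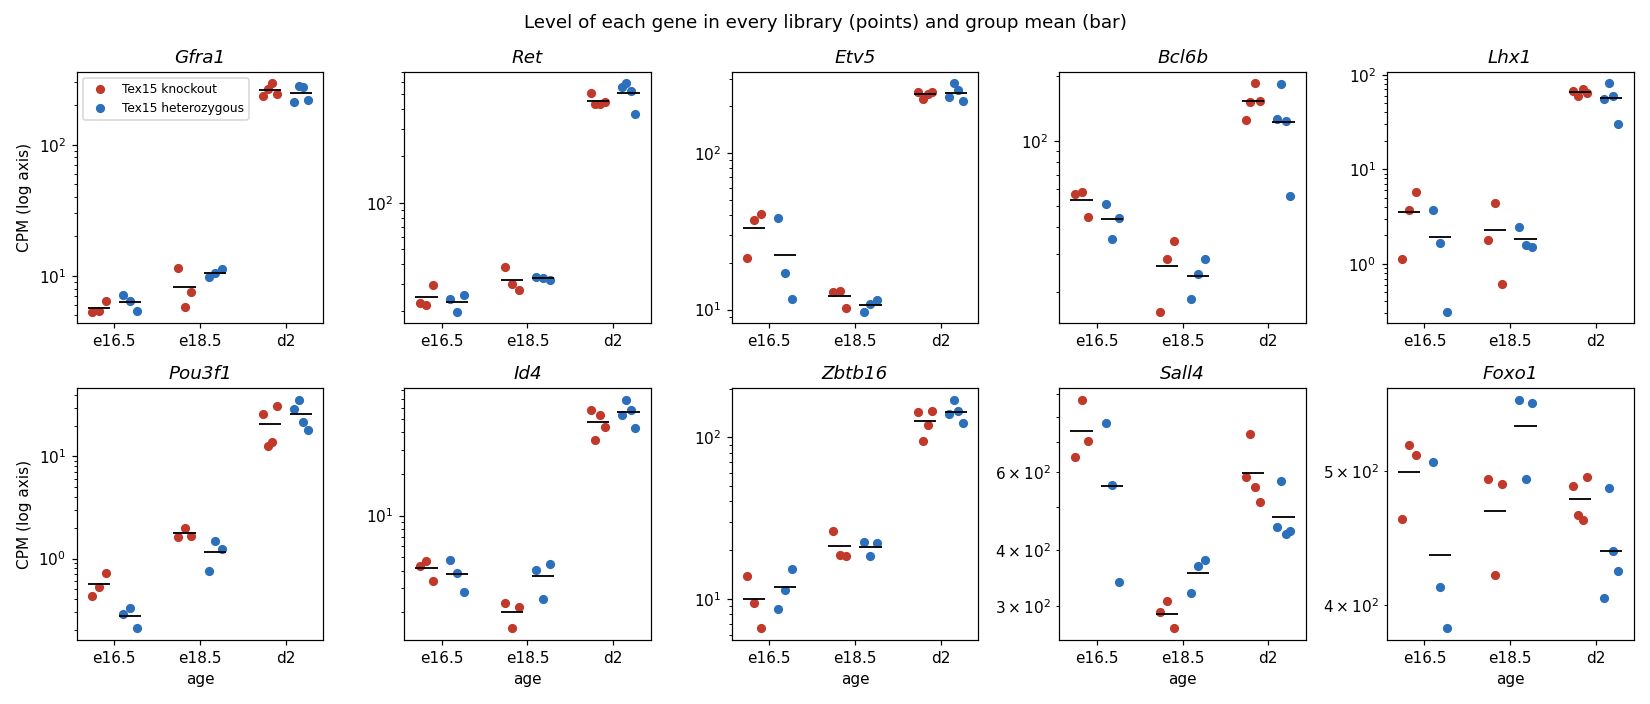
Level of each of the 10 genes (CPM, log axis, with its own range per panel) in every library by age; points are single libraries, KO in red on the left and HET in blue on the right at each age, and bars are group means. The first 8 genes show every d2 library above every fetal library, except Bcl6b, whose lowest HET library at d2 (55.4 CPM) lies among the e16.5 libraries, while Sall4 and Foxo1 stay between 267 and 873 CPM in all libraries.

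The co-receptor gene Gfra1 stood at 5.30, 5.42 and 6.39 CPM in KO cells at e16.5, against 7.20, 6.48 and 5.37 CPM in HET cells. At e18.5 the KO libraries held 11.4, 5.75 and 7.50 CPM and the HET libraries 9.86, 10.4 and 11.3 CPM. At d2 it reached 235, 268, 294 and 244 CPM in KO cells, against 212, 279, 277 and 219 CPM in HET cells. Every d2 library lay far above every fetal library, and the genotypes overlapped at each age. The log2 fold change between d2 and e18.5 was 4.97 in KO cells (95% interval 4.55 to 5.39, adjusted p = 4.46e-16) and 4.55 in HET cells (4.14 to 4.96, adjusted p = 1.27e-15). At d2 the log2 fold change of KO over HET was 0.07 (95% interval -0.19 to 0.34, adjusted p = 0.833).

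Ret encodes the receptor kinase that carries the signal. It stood at 22.3, 21.9 and 29.5 CPM in KO cells at e16.5, against 23.8, 19.7 and 25.2 CPM in HET cells. At e18.5 it stood at 38.3, 29.9 and 27.3 CPM in KO cells, against 33.3, 32.4 and 31.7 CPM in HET cells. At d2 the KO libraries held 514, 432, 435 and 446 CPM and the HET libraries 555, 591, 529 and 373 CPM. The HET libraries at d2 spread more widely than the KO libraries, with HET replicate 4 the lowest of all 8. Between d2 and e18.5 the log2 fold change was 3.84 in KO cells (95% interval 3.48 to 4.20, adjusted p = 2.77e-15) and 3.98 in HET cells (3.62 to 4.34, adjusted p = 1.27e-15).

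Among the regulators that respond to GDNF in culture, the ETS factor gene Etv5 fell before it rose. It stood at 21.3, 37.4 and 41.0 CPM in KO cells at e16.5, against 38.5, 17.2 and 11.7 CPM in HET cells. At e18.5 it stood at 13.1, 13.1 and 10.2 CPM in KO cells, against 9.66, 10.9 and 11.4 CPM in HET cells. At d2 it reached 247, 221, 240 and 246 CPM in KO cells, against 227, 280, 253 and 217 CPM in HET cells. The e16.5 libraries were scattered within both genotypes, whereas at the later ages the libraries of each group lay close together. From e16.5 to e18.5 the log2 fold change was -1.45 in KO cells (95% interval -2.05 to -0.86, adjusted p = 0.000525) and -1.08 in HET cells (-1.68 to -0.48, adjusted p = 0.0123). Without HET replicate 1 of e16.5 the HET value was -0.43 and its adjusted p 0.257, and without HET replicate 1 of e18.5 the adjusted p was 0.0578. The log2 fold change from e18.5 to d2 was 4.30 in KO cells (95% interval 3.67 to 4.92, adjusted p = 1.85e-10) and 4.52 in HET cells (3.89 to 5.15, adjusted p = 1.3e-10).

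Bcl6b, which encodes a zinc finger repressor, had a smaller rise. In KO cells it stood at 57.0, 57.9 and 44.4 CPM at e16.5, against 51.1, 35.3 and 43.8 CPM in HET cells. The e18.5 levels were 16.1, 28.4 and 34.3 CPM in KO cells, against 18.5, 24.2 and 28.3 CPM in HET cells. At d2 it stood at 126, 152, 186 and 154 CPM in KO cells, against 126, 185, 124 and 55.4 CPM in HET cells. HET replicate 4 again lay lowest at d2, and the other 3 HET libraries lay within the KO range or next to it. The fall between e16.5 and e18.5 passed the test in KO cells (log2 fold change -1.02, adjusted p = 0.0135, lost without KO replicate 1 of e18.5 at an adjusted p of 0.0650). It missed the threshold in HET cells (log2 fold change -0.88, adjusted p = 0.0512), and passed it there with DESeq2 (0.0267), with voom weights (0.0309) and when only these ages were fitted (0.00961). Between e18.5 and d2 the log2 fold change was 2.56 in KO cells (95% interval 1.92 to 3.19, adjusted p = 4.96e-07) and 2.38 in HET cells (1.75 to 3.01, adjusted p = 1.57e-06).

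The LIM homeobox gene Lhx1 was close to the detection limit before birth, with 7 to 71 counts in KO libraries and 3 to 39 counts in HET libraries of the fetal ages. At e16.5 these made 1.13, 3.67 and 5.74 CPM in KO cells, against 3.74, 1.65 and 0.31 CPM in HET cells. At e18.5 they made 1.78, 4.41 and 0.611 CPM in KO cells, against 2.46, 1.57 and 1.51 CPM in HET cells. At d2 it reached 67.4, 60.0, 71.0 and 63.7 CPM in KO cells, against 55.5, 81.2, 59.7 and 30.0 CPM in HET cells. The 4 KO libraries at d2 lay within the span of the HET libraries, of which replicate 4 was the lowest. The POU domain gene Pou3f1 had the lowest counts, 5, 6 and 9 in KO libraries and 3, 3 and 2 in HET libraries at e16.5, too few for the KO test at that age. At e18.5 it stood at 1.62, 2.01 and 1.66 CPM in KO cells, all above the 0.753, 1.49 and 1.23 CPM in HET cells. At d2 it stood at 25.9, 12.6, 13.8 and 31.3 CPM in KO cells, against 29.2, 35.8, 21.6 and 18.3 CPM in HET cells. Its d2 libraries were scattered in both genotypes, and KO replicates 2 and 3 lay below all HET libraries. From e18.5 to d2 the log2 fold change of Lhx1 was 4.87 in KO cells (95% interval 3.57 to 6.16, adjusted p = 2.81e-06) and 4.91 in HET cells (3.61 to 6.21, adjusted p = 3.49e-06). That of Pou3f1 was 3.57 in KO cells (2.79 to 4.34, adjusted p = 1.81e-08) and 4.50 in HET cells (3.68 to 5.32, adjusted p = 1.37e-09).

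Id4 encodes an inhibitor of basic helix-loop-helix factors that marks cells with stem cell capacity in the postnatal mouse testis. It stood at 4.34, 4.72 and 3.40 CPM in KO cells at e16.5, against 4.80, 3.85 and 2.79 CPM in HET cells. At e18.5 it stood at 2.35, 1.53 and 2.18 CPM in KO cells, against 4.04, 2.51 and 4.44 CPM in HET cells. At d2 it reached 58.1, 35.2, 53.4 and 43.7 CPM in KO cells, against 53.1, 68.5, 58.1 and 43.0 CPM in HET cells. All 3 KO libraries at e18.5 lay below the lowest HET library, while the genotypes overlapped at the other ages. Between e16.5 and e18.5 Id4 fell by 1.03 on the log2 scale in KO cells (adjusted p = 0.0098), and its log2 fold change in HET cells was -0.06 (95% interval -0.65 to 0.53, adjusted p = 0.908). The difference between these steps, -0.96, had an adjusted p of 0.706, so the step was not shown to differ between genotypes. From e18.5 to d2 the log2 fold change of Id4 was 4.54 in KO cells (3.94 to 5.15, adjusted p = 4.55e-12) and 3.93 in HET cells (3.36 to 4.49, adjusted p = 2.34e-11).

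Zbtb16, whose zinc finger protein keeps mouse spermatogonia undifferentiated, rose at both steps in both genotypes, as did Pou3f1. It stood at 13.8, 9.43 and 6.55 CPM in KO cells at e16.5, against 8.64, 11.3 and 15.3 CPM in HET cells. The e18.5 levels were 26.4, 18.6 and 18.5 CPM in KO cells, against 22.5, 18.3 and 22.0 CPM in HET cells. At d2 it reached 142, 95.3, 118 and 145 CPM in KO cells, against 139, 170, 144 and 122 CPM in HET cells. The groups of successive ages did not overlap within either genotype. The log2 fold change from e16.5 to e18.5 was 1.09 in KO cells (adjusted p = 0.000948) and 0.84 in HET cells (adjusted p = 0.0153, lost without HET replicate 1 or 2 of e16.5). From e18.5 to d2 it was 2.57 in KO cells (95% interval 2.10 to 3.03, adjusted p = 9.76e-10) and 2.78 in HET cells (2.31 to 3.25, adjusted p = 3.86e-10).

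Sall4, a zinc finger gene of pluripotent and germ cells, and Foxo1, a forkhead factor that PI3 kinase-AKT signalling keeps out of the nucleus, were already abundant in fetal cells. Sall4 stood at 650, 873 and 703 CPM in KO cells at e16.5, against 776, 560 and 339 CPM in HET cells. At e18.5 it stood at 290.0, 308 and 267 CPM in KO cells, against 320.3, 368 and 380.4 CPM in HET cells. At d2 it stood at 585, 730.2, 555 and 513 CPM in KO cells, against 451, 572, 434 and 443 CPM in HET cells. The KO libraries were all below the HET libraries at e18.5, and at d2 HET replicate 2 lay among the KO libraries while the other 3 HET libraries lay below all of them. From e16.5 to e18.5 it fell by 1.37 on the log2 scale in KO cells (adjusted p = 1.63e-05) and by 0.65 in HET cells (adjusted p = 0.0221, lost without any 1 of 4 HET libraries and at 0.288 without HET replicate 1 of e16.5). From e18.5 to d2 it rose by 1.05 in KO cells (adjusted p = 4.64e-05), and its log2 fold change in HET cells was 0.42 (95% interval 0.04 to 0.79, adjusted p = 0.0608). The HET value passed the test when only e18.5 and d2 were fitted (adjusted p = 0.0132).

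Foxo1 was the flattest of the 10 genes, and its 6 group means differed by 0.31 at most on the log2 scale. It stood at 461, 522 and 514 CPM in KO cells at e16.5, against 508, 412 and 385 CPM in HET cells. The e18.5 levels were 494, 420.2 and 489 CPM in KO cells, against 562, 493 and 559 CPM in HET cells. At d2 it stood at 488, 465, 461 and 494 CPM in KO cells, against 405, 486, 437 and 423 CPM in HET cells. The libraries of neighbouring groups overlapped throughout the order of its 6 means. The one call, a fall of 0.30 on the log2 scale from e18.5 to d2 in HET cells (adjusted p = 0.0286), was lost without HET replicate 1 or 3 of e18.5 or HET replicate 1 or 4 of d2, with adjusted p reaching 0.0966. It was also lost with repeat names in the fit (adjusted p = 0.148). In KO cells the log2 fold change was 0.03 (95% interval -0.20 to 0.26), and it was -0.04 with median-ratio scaling.

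**Figure D2:**
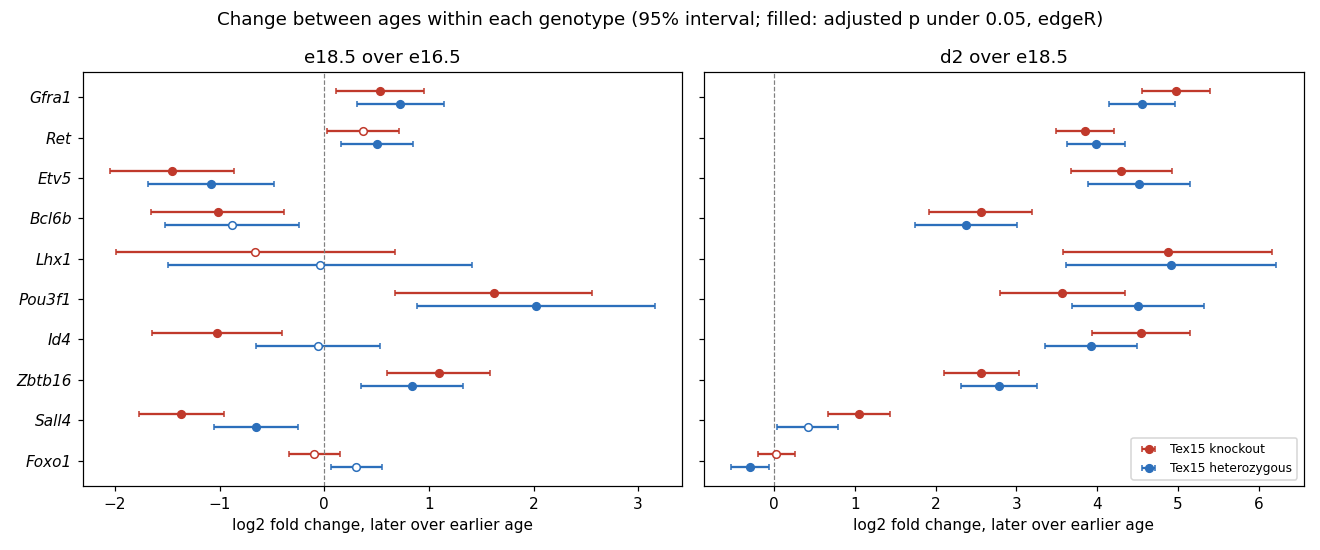
Log2 fold change of each gene between successive ages, later over earlier, in KO cells (red, upper) and HET cells (blue, lower), with 95% intervals; filled points have an adjusted p under 0.05 in edgeR. At the later step the first 8 genes lie between 2.38 and 4.97, and at the earlier step the genes lie on both sides of 0.

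The step from e16.5 to e18.5 moved the genes in different directions. In KO cells Gfra1, Pou3f1 and Zbtb16 rose and Etv5, Bcl6b, Id4 and Sall4 fell, against 17.5% of all genes that rose and 17.7% that fell. In HET cells Gfra1, Ret, Pou3f1 and Zbtb16 rose and Etv5 and Sall4 fell, against 7.63% of all genes that rose and 10.2% that fell. Marker lists moved at this step too. The 9 germ cell markers summed to 3667 to 4231 CPM in KO libraries at e18.5, against 5271 to 6071 CPM in KO libraries at e16.5, and 7 of them fell. The 11 stroma markers summed to 298 to 321 CPM in KO libraries at e18.5, against 150 to 191 CPM at e16.5, and 6 of 11 stroma, 4 of 7 endothelial and 3 of 12 Sertoli cell markers rose. In HET cells the germ cell markers summed to 4006 to 4943 CPM at e18.5, against 4140 to 5647 CPM at e16.5, with 1 higher and 3 lower, while 1 of 11 stroma markers rose and 1 fell, 1 of 7 endothelial markers rose and none of 12 Sertoli cell markers rose. The part of these shifts in the levels of the 10 genes was not tested. Gfra1 rose by 0.53 on the log2 scale in KO cells (adjusted p = 0.0448) and by 0.73 in HET cells (adjusted p = 0.0140). The KO call of Gfra1 was lost in 11 of 20 fits that left out 1 library and in 5 of 8 other settings (adjusted p up to 0.171). The HET call of Gfra1 was lost without HET replicate 3 of e16.5 (adjusted p = 0.0531), with voom weights (0.0598) and when only these ages were fitted (0.0806). Ret rose by 0.50 in HET cells (adjusted p = 0.0376), a call lost without any 1 of 5 HET libraries, and its log2 fold change in KO cells was 0.37 (adjusted p = 0.0836). The HET call of Ret was also lost with repeat names in the fit (0.0662) and when only these ages were fitted (0.0668). Pou3f1 rose by 1.62 in KO cells and by 2.02 in HET cells, where the 3 libraries of e16.5 held 8 counts in all. The calls of Pou3f1 were lost with voom weights (adjusted p = 0.0523 in KO cells and 0.0835 in HET cells), the KO call when only these ages were fitted (0.05005), and the HET call without HET replicate 2 of e18.5 (0.0541). The number of calls in HET cells, 6, fell to 3 without HET replicate 1 or 2 of e16.5 or HET replicate 1 or 2 of e18.5. From e16.5 to d2, 8 of the 10 genes rose in KO cells and 8 in HET cells, against 20.8% and 20.5% of all genes, and neither Sall4 nor Foxo1 passed the test.

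Single libraries at e16.5 carried much of the spread. In KO cells Sall4, Etv5 and Lhx1 were lowest in replicate 1 and Zbtb16 was highest there, and in HET cells Etv5, Lhx1 and Sall4 were lowest in replicate 3 and Zbtb16 was highest there. HET replicate 1 had the most Sall4, Etv5 and Lhx1 of the HET libraries and the least Zbtb16. The summed level of 11 stroma markers was 150 to 191 CPM in KO libraries at e16.5, against 177 CPM in HET replicate 1 and 336 and 344 CPM in HET replicates 2 and 3. Its part in the spread of these genes was not tested.

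**Figure D3:**
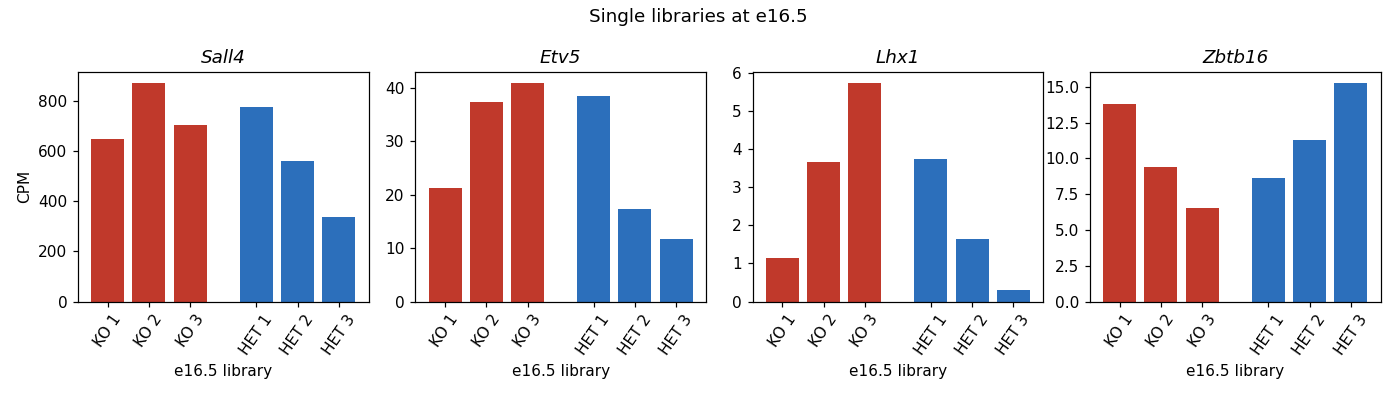
Level (CPM, linear axis from 0) of Sall4, Etv5, Lhx1 and Zbtb16 in each e16.5 library, KO bars left (red) and HET bars right (blue), 1 bar per library. HET replicate 3 has the lowest Sall4 (339 CPM), Etv5 (11.7 CPM) and Lhx1 (0.31 CPM) and the highest Zbtb16 (15.3 CPM) of the 6 libraries.

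None of the 10 genes passed the test between KO and HET cells at any age. Of the 9 genes tested, none was called at e16.5, where 0.00610% of all genes were called, namely Tex15 alone. None of the 10 was called at e18.5 or at d2, where 2.33% and 2.80% of all genes were called. At these background shares a count of 0 among 10 genes is not a result about the genes as a list. At an unadjusted p under 0.05, 1266 of 16384 genes were called for e16.5, 2045 of 18075 for e18.5 and 2492 of 15343 for d2. Of the 10 genes only Sall4 was called so, at e18.5 and at d2, which is not a result about the list either. DESeq2 and limma with voom weights called none of the genes at any age either. The median log2 fold change of KO over HET among the genes tested here was 0.18 for e16.5, -0.01 for e18.5 and 0.02 for d2, and the median of all genes was -0.01, -0.01 and -0.02. Single estimates ran from -0.27 for Zbtb16 (95% interval -0.96 to 0.43) to 0.86 for Lhx1 (-0.71 to 2.42) at e16.5, and from -0.85 for Id4 to 0.60 for Pou3f1 (-0.65 to 1.86) at e18.5.

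The d2 intervals were narrow for the genes with many counts. The log2 fold change of KO over HET was -0.17 for Ret (95% interval -0.44 to 0.10), -0.04 for Etv5 (-0.28 to 0.20) and 0.12 for Foxo1 (-0.10 to 0.34). It was 0.33 for Bcl6b (-0.24 to 0.90), 0.21 for Lhx1 (-0.24 to 0.66) and -0.33 for Pou3f1 (-0.94 to 0.28), whose libraries were more scattered. For Id4 it was -0.23 (-0.62 to 0.16) and for Zbtb16 -0.20 (-0.51 to 0.10). The genotypes overlapped at d2 for both receptor genes and each of the 8 regulators. Among the 4 KO libraries, KO replicate 2 had the lowest level of 6 genes, namely Ret, Etv5, Lhx1, Pou3f1, Id4 and Zbtb16, and the highest Sall4. Without KO replicate 2 the values were -0.11 for Id4, -0.10 for Zbtb16, -0.15 for Pou3f1 and 0.06 for Gfra1. They were -0.14 for Ret, -0.0070 for Etv5, 0.33 for Bcl6b, 0.24 for Lhx1 and 0.13 for Foxo1, and none of the 10 genes was called.

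The HET libraries at d2 differed from one another across the whole set. HET replicate 2 had the highest level of all 10 genes among the 4 HET libraries, and HET replicate 4 had the lowest level of 7, namely Ret, Etv5, Bcl6b, Lhx1, Pou3f1, Id4 and Zbtb16. Repeats took 43.2% of the counts in HET replicate 2 and 51.6% in HET replicate 4, with 48.3% and 48.9% in HET replicates 1 and 3, and the part of this share in the levels was not tested. Without HET replicate 4 the log2 fold change of KO over HET was 0.09 for Bcl6b, 0.0023 for Lhx1 and -0.29 for Ret. Without HET replicate 2 it was 0.60 for Bcl6b, 0.43 for Lhx1, -0.09 for Ret and 0.42 for Sall4 (adjusted p = 0.0949). None of the 10 genes was called in either fit.

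Sall4 came nearest to a genotype difference, with a sign that varied by age. Its log2 fold change of KO over HET was 0.39 at e16.5 (95% interval -0.12 to 0.90, adjusted p = 0.675), -0.31 at e18.5 (-0.56 to -0.06, adjusted p = 0.261) and 0.32 at d2 (0.06 to 0.59, adjusted p = 0.199). Without KO replicate 2 the d2 value was 0.21 (adjusted p = 0.394). The KO effect at d2 minus that at e18.5 was 0.63 (0.10 to 1.16, adjusted p = 0.274), and that at e18.5 minus that at e16.5 was -0.72 (-1.28 to -0.15, adjusted p = 0.604). Neither difference passed the test, and these comparisons share the e18.5 libraries. Id4 had the largest estimate among the 10 genes at e18.5, -0.85 (-1.84 to 0.13, adjusted p = 0.537), from 16 to 29 counts per KO library and 32 to 59 counts per HET library. On the scale of that age alone, the KO and HET libraries of 4 of the 10 genes did not overlap at e18.5, namely Sall4, Foxo1, Pou3f1 and Id4, where 16.8% of all genes did not. At e16.5 and d2 the genotypes overlapped for each of the genes tested, and 12.8% and 9.91% of all genes did not overlap.

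**Figure D4:**
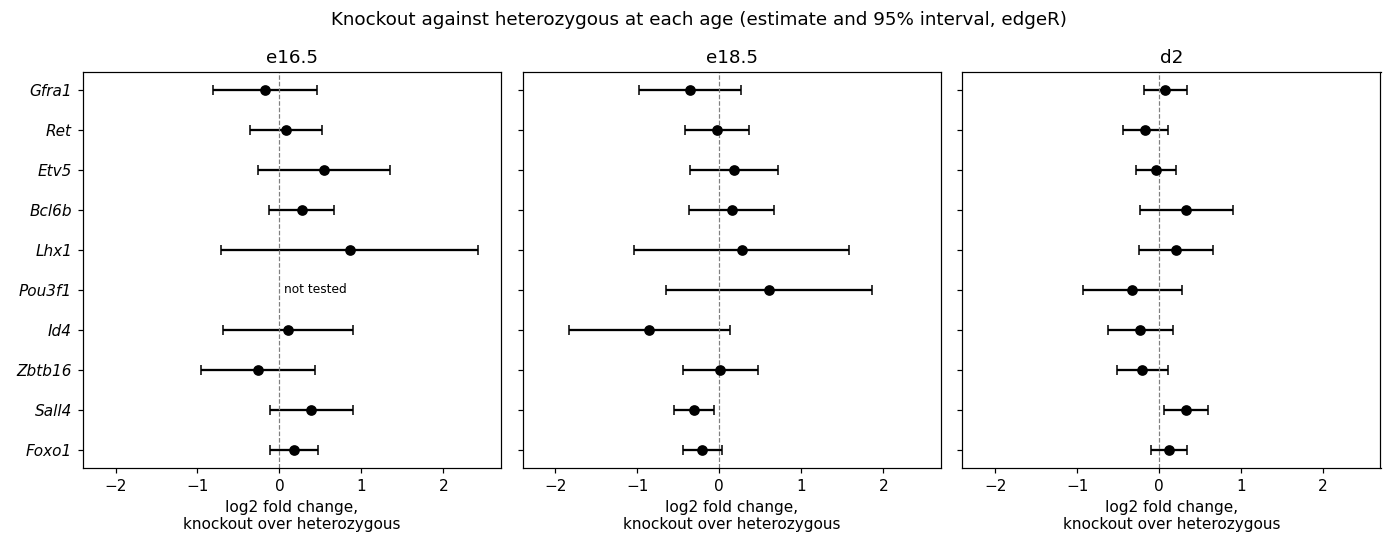
Log2 fold change of KO over HET with its 95% interval for each of the 10 genes by age (edgeR); Pou3f1 had too few counts for the test at e16.5. The intervals include 0 except those of Sall4 at e18.5 (-0.31) and d2 (0.32), and no adjusted p is under 0.05.

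No difference of the KO effect between ages passed the test for any of the 10 genes, against 0.0967% of all genes for e18.5 minus e16.5, 0.526% for d2 minus e18.5 and 0.800% for d2 minus e16.5. At an unadjusted p under 0.05 these contrasts called 1190, 2508 and 2168 genes in all. Without HET replicate 1 of e16.5, Etv5 was called for d2 minus e16.5, at -1.27 on the log2 scale (adjusted p = 0.0153).

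Cell type markers moved with some of these comparisons. In HET cells the 9 germ cell markers summed to 3150 to 3678 CPM at d2, against 4006 to 4943 CPM at e18.5. Of these, 1 rose and 4 fell. In KO cells they summed to 3436 to 4756 CPM at d2, against 3667 to 4231 CPM at e18.5, and 3 rose and 4 fell. Of all genes 25.3% rose and 29.7% fell in KO cells at this step, and 24.1% rose and 27.0% fell in HET cells. The summed level of 12 Sertoli cell markers was 79.6 to 110 CPM in KO libraries at d2, against 64.1 to 76.5 CPM in KO libraries at e18.5, and 99.1 to 110 CPM in HET libraries at d2, against 66.3 to 76.1 CPM in HET libraries at e18.5. Of these 12 markers 2 rose in KO cells and 4 in HET cells between e18.5 and d2, and Amh and Gata1 were at 0 in KO replicate 2 of d2 and Cldn11 in KO replicate 1. Ret also marks enteric and peripheral neurons and glia, whose 6 markers summed to 14.5 to 16.0 CPM in KO libraries at d2, against 29.7 to 38.2 CPM at e18.5, and to 16.9 to 21.0 CPM in HET libraries at d2, against 33.1 to 44.5 CPM at e18.5. At e18.5 the 8 macrophage markers summed to 106 to 129 CPM in KO libraries, against 45.8 to 67.4 CPM in HET libraries, and 2 of 7 tested, Adgre1 and Mrc1, were called higher. At e16.5 the Sertoli cell markers summed to 50.1 to 60.1 CPM in KO libraries, against 69.7 to 75.6 CPM in HET libraries, with none of 9 tested called. At d2 Sox9 was called lower in KO cells, 1 of 9 Sertoli cell markers tested. Of the 9 germ cell markers 1 was called higher in KO cells at d2, where 2.80% of all genes were called. Of 10 stroma markers tested at e18.5, 1 was called higher in KO cells, where 2.33% of all genes were called. The 7 Leydig cell markers summed to 113 CPM in HET replicate 2 of e16.5 and to 13.8 to 43.9 CPM in all other libraries. The 7 endothelial markers summed to 110 to 220.2 CPM over all libraries, and 6 of 8 red blood cell markers were at 0 throughout. The part of these marker shifts in the levels of the 10 genes was not tested.

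Of the other genes of the pathway, GDNF ligands and co-receptors were counted first. Of 7 tested between e18.5 and d2, 1 rose and 2 fell in each genotype. Of all genes 25.3% rose and 29.7% fell in KO cells at this step, and 24.1% rose and 27.0% fell in HET cells. At these background shares the counts of 7 genes are not a result about the list. The genes that fell were not the same, Gfra2 and Gfral in KO cells and Gdnf and Artn in HET cells. The Gfral call was lost without KO replicate 3 of e18.5, and the Artn call without HET replicate 3 of e18.5. The ligand gene Gdnf stood at 3.89 ± 1.36 CPM in KO cells at d2, against 5.63 ± 1.35 CPM at e18.5 (SD, n = 4 and 3, log2 fold change -0.54, adjusted p = 0.263), and at 3.52 ± 1.65 CPM in HET cells at d2, against 10.5 ± 2.18 CPM at e18.5, a fall of 1.59 on the log2 scale (adjusted p = 0.00174). Gfra4, the co-receptor gene for persephin, rose by 1.45 on the log2 scale in KO cells and by 1.59 in HET cells. The KO call was lost without KO replicate 1 or 3 of e18.5 or KO replicate 3 or 4 of d2, and the HET call without HET replicate 3 of e18.5 or HET replicate 2 of d2 (1.09, adjusted p = 0.114). Among 31 tested RET adaptor and kinase genes, 15 rose and 5 fell in KO cells and 16 rose and 6 fell in HET cells. The SRC family kinase gene Fyn rose by 1.95 and 1.85 on the log2 scale in KO and HET cells, the MEK1 gene Map2k1 rose by 2.53 and 2.05, and the RAF kinase gene Braf fell by 1.74 and 1.83. The list's median was 0.39 in KO cells and 0.36 in HET cells.

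The 18 ERK feedback and early target genes had the largest median of the 6 lists. Between e18.5 and d2, 15 rose and 1, Etv1, fell in KO cells, with a median of 3.35 on the log2 scale, while 14 rose and none fell in HET cells, with a median of 2.73. Of all genes 25.3% rose and 29.7% fell in KO cells, and 24.1% rose and 27.0% fell in HET cells. The immediate early gene Egr1 stood at 985 ± 129 CPM in KO cells at d2, against 72.8 ± 14.3 CPM at e18.5 (SD, n = 4 and 3), and at 1010 ± 91.0 CPM in HET cells at d2, against 62.6 ± 7.00 CPM at e18.5. Egr2, of the same family, stood at 189 ± 38.4 CPM in KO cells at d2, against 8.30 ± 1.50 CPM at e18.5, and at 189 ± 27.3 CPM in HET cells at d2, against 7.98 ± 2.83 CPM at e18.5. Genes of this list respond to many growth factor receptors and not to RET alone.

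**Figure D5:**
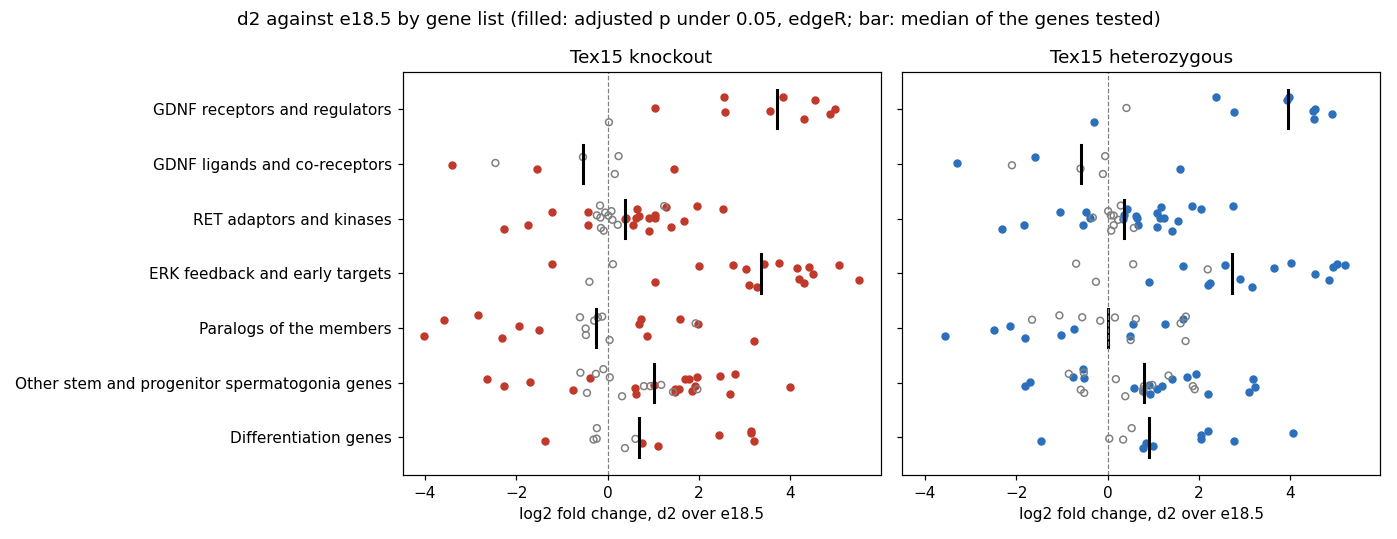
Log2 fold change of d2 over e18.5 for the 10 genes and 6 lists of related genes, in KO cells (left) and HET cells (right); each point is a gene, filled where the adjusted p is under 0.05 in edgeR, and the bar is the median of the genes tested. The 10 genes and the ERK feedback genes have medians of 3.70 and 3.35 in KO cells and of 3.95 and 2.73 in HET cells, and the other lists have medians between -0.59 and 1.02.

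Among 20 tested paralogs of the 10 genes, 6 rose and 6 fell in KO cells, and 4 rose and 6 fell in HET cells. Of all genes 25.3% rose and 29.7% fell in KO cells and 24.1% and 27.0% in HET cells, so these shares are not a result about the paralogs. Bcl6, the close relative of Bcl6b, fell by 4.02 on the log2 scale in KO cells and by 3.56 in HET cells, to 5.70 ± 2.51 and 7.55 ± 3.43 CPM at d2 (SD, n = 4 each). The LIM homeobox gene Lhx9 fell by 1.50 and 2.48 on the log2 scale in KO and HET cells. Among 31 tested other genes of stem and progenitor spermatogonia, 15 rose and 5 fell in KO cells and 13 rose and 5 fell in HET cells. The cyclin gene Ccnd2 reached 776 ± 64.4 CPM in KO cells at d2, against 48.8 ± 18.4 CPM at e18.5, and 612 ± 14.1 CPM in HET cells at d2, against 65.0 ± 11.1 CPM at e18.5. Utf1, a chromatin gene of pluripotent and undifferentiated germ cells, fell by 2.27 and 1.81 on the log2 scale in KO and HET cells. Of the 12 differentiation genes 6 rose and 1 fell in KO cells and 8 rose and 1 fell in HET cells. At the earlier step, from e16.5 to e18.5, 3 of the 18 ERK feedback genes rose and 2 fell in KO cells, against 17.5% and 17.7% of all genes. In HET cells 1, Dusp6, rose by 1.34 on the log2 scale, against 7.63% of all genes, a call lost in 12 of 20 fits that left out 1 library. Gdnf rose by 1.58 in HET cells at that step, to 10.5 ± 2.18 CPM at e18.5, against 3.49 ± 1.23 CPM at e16.5 (SD, n = 3 each), a call lost without HET replicate 1 of e16.5 (adjusted p = 0.0833) or HET replicate 3 of e18.5 (0.0554). Among the paralogs 8 rose and 1 fell in KO cells at that step, and 7 rose and none fell in HET cells.

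None of the genes tested from these lists was called between the genotypes for e16.5, where Tex15 was the only call among 16384 genes. Few were called at the later ages, where 2.33% (e18.5) and 2.80% (d2) of all genes were called. At these background shares the number of calls is not a result about the lists. At e18.5 Kit, the stem cell factor receptor gene of differentiating spermatogonia, was higher, at 125 ± 10.9 CPM in KO cells and 86.9 ± 0.78 CPM in HET cells (SD, n = 3 each, adjusted p = 0.0389), a call lost in 5 of 6 fits that left out 1 library. At d2 the SRC family kinase gene Yes1 stood at 93.8 ± 13.2 CPM in KO cells and 56.5 ± 6.96 CPM in HET cells (SD, n = 4 each, adjusted p = 0.0149). Without KO replicate 2 its adjusted p was 0.00582, and it was lost without KO replicate 1, 3 or 4 or HET replicate 1. Egr3, an early ERK target, stood at 110 ± 23.2 CPM in KO cells and 164 ± 12.8 CPM in HET cells at d2 (adjusted p = 0.0349, 0.0722 without KO replicate 2, and lost also without KO replicate 3 or HET replicate 1 or 3). Tsc22d3, a glucocorticoid-induced gene, was higher by 0.72 on the log2 scale in KO cells (adjusted p = 0.0245) and Nxf2, an RNA export gene on the X chromosome, by 0.49 (adjusted p = 0.0406), and each was lost in at least 4 of 8 fits that left out 1 library. Without KO replicate 2 their adjusted p was 0.0221 and 0.0475. The KO effect on Yes1 differed between d2 and e16.5 by 0.85, just under the threshold (adjusted p = 0.0492). Whether this call holds without single libraries or under other settings was not examined.

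Levels were compared between genes only per length, as CPM per kilobase of the longest RefSeq-linked transcript of GENCODE vM21, an annotation of a later build than that of the counts. On this scale Sall4 and Foxo1 ranked first and second in all 4 fetal groups, at 56.8 to 146 and 50.2 to 62.1 CPM per kilobase, and Bcl6b came next at 7.03 to 15.8. At d2 the order in KO cells was Sall4 at 118, Ret at 83.7, Etv5 at 60.0, Gfra1 at 56.1, Foxo1 at 55.1 and Bcl6b at 45.9 CPM per kilobase. In HET cells it was Ret at 93.9, Sall4 at 93.6, Etv5 at 61.5, Gfra1 at 53.2, Foxo1 at 50.5 and Bcl6b at 36.5. Zbtb16, Lhx1, Id4 and Pou3f1 followed in that order in both genotypes. Ret stood above Gfra1 per kilobase in all 6 groups.

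Across the 20 libraries, the genes most like each of the 10 in pattern were sought by the mean absolute difference of log2 CPM after centring each gene on its own mean, among 13311 genes that were expressed. The nearest to Gfra1 were Tmem59l at 0.40, Ret at 0.45 and Egr2 at 0.47, and those to Ret were Phlda1 at 0.34, Pdgfb at 0.35 and Ccnd2 at 0.35. Pou3f1 had Phlda1, Ret and Gfra1 nearest at 0.48 to 0.55, and Lhx1 had Setdb2, Gfra1 and Scamp3 at 0.64 to 0.67. Etv5 and Id4 shared Uhrf1, a gene of DNA methylation maintenance, as nearest at 0.32 for each. The other near genes were Gpx1 and Nr5a2 for Etv5 and Cdc6 for Id4. Bcl6b lay nearest to Mcm2, Ccna2 and Cdt1, genes of DNA replication and the cell cycle, at 0.25 to 0.27, and Zbtb16 to Kcnj15, Tcf7l2 and Ccnd1 at 0.29 to 0.34. Sall4, lowest at e18.5, lay nearest to Cct2, Psmd14 and Smarcc1 at 0.13 to 0.16. Foxo1 varied too little for such a comparison. These patterns rest on 3 ages that differ together, so they are descriptions with no test.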

How the data were processed

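RNA of 20 libraries of sorted male germ cells was amplified and sequenced as total RNA. The deposited tables, 1 per age, hold raw counts per gene symbol and per repeat name. STAR, featureCounts, edgeR, Bowtie and the mm9 build are named in the submitters' processing notes, with no versions or counting settings. Whether strand was used is not given in the sources used here, so reads of overlapping or antisense genes cannot be told apart. Rows of 1217 repeat names, 43.2% to 65.0% of all counts, were kept out of library sizes and of the main tests.

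The 10 genes, the gene lists and the rules for named genes were chosen with earlier results of these data known. KO and HET libraries were compared within each age, and ages within each genotype in 1 fit of all 20 libraries, on 23853 symbols shared by the tables. Both used edgeR 4.0.16 (R 4.3.3): filterByExpr with a minimum of 10 counts per library and 15 in total, TMM scaling, the robust quasi-likelihood test and Benjamini-Hochberg adjustment over all genes tested, with a threshold of 0.05. Errors are SD over libraries or 95% intervals. No 2 libraries of a group agreed within sampling noise. From each list, up to 3 called genes with the smallest p were named for KO against HET, and up to 2 per direction between ages; a gene named for 1 genotype is given for both. The test was tried on simulated counts with known changes. Alternatives were DESeq2 1.42.0, limma 3.58.1 with voom quality weights, median-ratio scaling, other filters, repeat names in the fit, a replicate block, other sets of ages and leaving out each library.

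Replicate numbers were checked for pairing. Deviations of same-numbered KO and HET libraries from their group means correlated at 0.208, 0.123 and 0.159 at e18.5. This met the rule that every pair exceeds 0.1, which was not met at e16.5 or d2. Differently numbered libraries reached 0.564 at e16.5 and 0.369 at d2, so values of this size do not show that libraries were paired at e18.5. A few results for single genes are not reported here.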

Additional observations from a re-analysis of the deposited data

Results flagged for a closer look

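Sall4 in HET cells at d2 held 1 library apart from the rest. HET replicate 2 lay at 572 CPM, against 434 to 451 CPM in the other 3 HET libraries. The gap to its nearest neighbour was 0.879 of the group's range, above Dixon's 95% critical value for 4 samples. It was the 1 flag among 20 groups of 4 libraries examined, and chance flags about 1 in 20.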

How the results depend on the processing

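The 8 steep rises from e18.5 to d2 and the KO rise of Sall4 kept their direction and their call under each alternative and without any 1 library. The number of called genes among the 10 stayed at 0 for KO against HET at each age under every alternative. In HET cells from e16.5 to e18.5 the count of 6 ran from 3 to 7 without 1 library. For the KO effect at d2 minus that at e16.5 the count of 0 ran from 0 to 1 without 1 library. With the replicate block, 599 genes were called at e18.5 against 422 without it and 235 at d2 against 430, and no KO call of the 10 genes changed. Between ages the block ended the KO rise of Gfra1 from e16.5 to e18.5 (adjusted p = 0.0562) and the HET fall of Foxo1 at d2 (0.0527), and brought in the HET rise of Sall4 at d2 (0.0365). The HET fall of Bcl6b at e18.5 passed the test in 5 of 8 other settings, the block included (0.0308). The block turned the sign of Lhx1 (-0.022) and Zbtb16 (-0.0017) at e18.5, each near 0. The block rests on a shared number only. The same-number correlations were -0.412, 0.146 and 0.148 at e16.5 and from -0.289 to 0.161 at d2.

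Other sign changes follow. From e16.5 to e18.5 Lhx1 in HET cells was 0.13 with voom, and Foxo1 in KO cells from e18.5 to d2 was -0.043 with DESeq2 and with median-ratio scaling. Without 1 library, KO over HET ran from -0.069 to 0.16 for Ret and from -0.081 to 0.30 for Id4 at e16.5. At e18.5 it ran from -0.19 to 0.068 for Ret, from -0.093 to 0.41 for Bcl6b, from -0.63 (without KO replicate 2) to 0.72 for Lhx1 and from -0.18 to 0.10 for Zbtb16, and at d2 from -0.085 to 0.030 for Etv5. In HET cells from e16.5 to e18.5, Lhx1 ran from -0.55 to 0.96 (without HET replicate 1 of e16.5) and Id4 from -0.25 to 0.16. Foxo1 in KO cells from e18.5 to d2 ran from -0.037 to 0.076.

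Genes called in all between KO and HET moved more. At e16.5 there was 1 with edgeR, 22 with DESeq2, 2 with no filter, 0 with all ages in 1 fit and 1 to 25 without 1 library. At e18.5 there were 422, and 152 with all ages in 1 fit. At d2 there were 430, 768 with DESeq2, 770 with all ages in 1 fit and 187 to 573 without 1 library. The causes were not tested. Fetal Lhx1, Pou3f1 and Id4 rest on few counts, and their intervals are wide.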
